A study of Mus musculus with 2 samples.

Results

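The sites described here are CTCF binding sites at the promoters of protein-coding genes that face one way. A site was kept when its summit, the base of highest signal in the peak, lay within 1000 bp of an annotated start of a protein-coding transcript and every such start in reach belonged to genes on 1 strand. Of 56462 placed sites in the authors' optimal list, 8591 met this rule, which is 15.2%. A further 764 sites had coding starts on both strands in reach, and 47107 lay farther than 1000 bp from any coding start. These 47107 are called sites outside promoters here, and sites at starts of noncoding RNAs were not taken out of them. The label of a single-gene promoter held for 8496 of the 8591 sites, and 95 had starts of several genes of the same strand in reach. For 4856 sites (56.5%) only 1 start position was in reach, and for the others the distance refers to the nearest of several starts. The starts come from the GENCODE M21 basic annotation and all positions are on the mouse genome build mm10.

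The data are 2 chromatin immunoprecipitation libraries made with an antibody to CTCF from forebrain of newborn (postnatal day 0) mice of strain B6NCrl. The tissue was pulverised and pooled over several dissections, the sex was not collected, and no genetic change or treatment is given. The labels call the libraries biological replicates 1 and 2 but give both the same tissue sample and donor. Their spread may therefore be only that of repeated preparations from 1 pool, which the labels do not settle. The series holds 1 group with no second condition. Forebrain is a mixture of neurons, progenitors, glia and vessel cells, and a peak list cannot say which of them carried a site. Peak lists hold no RNA levels, so the tissue label was not checked against marker expression. The number of reads behind each library is unknown, and heights are given as the authors' signal value per peak, whose scale no source used here states.

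CTCF reads a long DNA motif with its row of zinc fingers and marks the borders of chromatin domains and the anchors of chromatin loops, where it stops the cohesin ring. The motif is not a palindrome, so each site points one way, and loops form mainly between sites that point towards each other. At promoters CTCF is known to lie close to the start of transcription, to bring distant enhancers near, and to bind many CpG islands, which are GC-rich stretches that keep their CpG pairs and mostly escape DNA methylation. In neurons it is known for its part in the promoter choice of clustered cell adhesion genes and in the expression of synaptic genes.

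The stretches printed next are the 5 sites of highest signal within 100 bp of a start, shown because they carry the position at which the promoter sites were densest and strongest. Each is read so that the motif runs in its usual direction, and the capitals mark the best match to the CTCF consensus, a motif of 14 bases searched on both strands with up to 2 mismatches allowed.
Adprhl2, chr4:126321723-126321783, minus strand: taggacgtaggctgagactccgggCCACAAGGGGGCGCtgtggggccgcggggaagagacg
Nipsnap2, chr5:129724972-129725032, minus strand: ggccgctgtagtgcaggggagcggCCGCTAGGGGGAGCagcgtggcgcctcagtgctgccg
Med4, chr14:73509874-73509934, plus strand: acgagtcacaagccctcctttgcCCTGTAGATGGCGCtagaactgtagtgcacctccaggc
Rrp1, chr10:78413102-78413162, minus strand: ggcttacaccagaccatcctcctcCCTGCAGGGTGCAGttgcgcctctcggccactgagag
Lsm11, chr11:45945004-45945064, plus strand: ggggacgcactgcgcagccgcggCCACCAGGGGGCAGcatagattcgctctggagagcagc

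Strong sites more than 100 bp downstream of the start are shown for contrast, because 3 of the 5 strongest there matched the consensus in full. Over all sites full matches were not more frequent there, at 1.85%, against 2.30% within 100 bp and 3.01% farther upstream.
Ccdc110, chr8:45934926-45934986, minus strand: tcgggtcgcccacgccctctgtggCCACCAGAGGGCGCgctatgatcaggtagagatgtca
Src, chr2:157457596-157457656, minus strand: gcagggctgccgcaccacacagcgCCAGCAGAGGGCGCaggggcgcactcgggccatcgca
Cd276, chr9:58540010-58540070, plus strand: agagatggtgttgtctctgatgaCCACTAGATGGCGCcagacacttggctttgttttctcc

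The last set comes from strong sites in which no match was found even with 3 mismatches. These are centred on the summit, read on the gene's strand, and carry no capitals.
Ovca2, chr11:75179091-75179151, minus strand: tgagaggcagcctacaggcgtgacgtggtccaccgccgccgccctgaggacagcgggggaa
Tmem270, chr5:134907332-134907392, minus strand: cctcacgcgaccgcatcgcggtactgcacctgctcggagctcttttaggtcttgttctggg

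CTCF sites at coding promoters crowded the bases just upstream of the start. The rule fixed only that a summit lay within 1000 bp, so position inside that window is a description of where the sites fell. Of the 8591 sites, 4618 lay upstream, 19 on the start itself and 3954 (46.02%) downstream, and 2432 (28.3%) lay within 100 bp of the start. The median distance from the start, taken without sign, was 228 bp. The sequence open to the rule amounted to 51.7 Mb and was nearly even between the sides, with 50.4% of it downstream. Over all of it there were 166 sites per Mb, against 18.2 per Mb in the rest of the genome and 356 per Mb where coding starts faced both ways.

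Density rose towards the start from both sides, but not evenly. It was 83.0 sites per Mb between 1000 and 500 bp upstream, 154 between 500 and 200 bp, and 344 between 200 and 100 bp. The highest value was 507 sites per Mb, at 100 to 50 bp upstream, followed by 495 in the last 50 bp before the start. Past the start it fell to 364 sites per Mb over the first 50 bp, 249 at 50 to 100 bp and 96.4 at 500 to 1000 bp. A distance on the border of 2 such steps is counted in the one nearer the start. At the limit of the rule the values were as follows. The 31 sites in the last 10 bp inside it had a median signal of 54.0 and a motif share of 38.7%, and the 32 sites in the first 10 bp outside it had 53.8 and 50%.

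**Figure D1:**
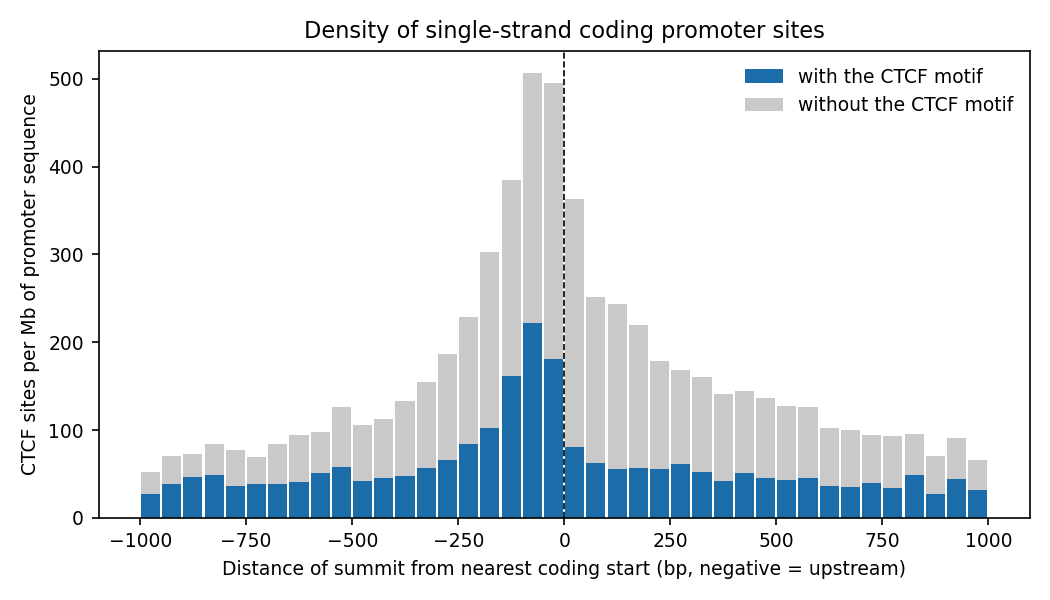
CTCF sites per Mb of available promoter sequence (vertical axis) in 50 bp steps of signed distance from the nearest coding start (horizontal axis, bp), split into sites with the CTCF motif (blue) and without it (grey), stacked. Sites with the motif peak at 222 per Mb at 100 to 50 bp upstream and drop to 80.8 per Mb in the first 50 bp past the start, while sites without it reach 314 per Mb in the 50 bp before the start and 282 per Mb in the 50 bp after it.

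The plot of density by distance separates both kinds of site. With the motif, density was 181 per Mb in the 50 bp before the start and 80.8 per Mb in the 50 bp after it. Without the motif, the step across the start was from 314 to 282 per Mb. Beyond 500 bp upstream the steps held 27.2 to 58.5 sites per Mb with the motif and 24.7 to 68.1 without it. Beyond 500 bp downstream they held 26.8 to 48.3 with it and 35.0 to 83.9 without it.

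Most promoter sites lacked a close match to the CTCF motif. A match with at most 2 mismatches lay wholly within 50 bp of the summit in 3159 of 8591 sites, 36.8% (Wilson 95% interval 35.8% to 37.8%), against 66.6% of all placed sites. The share was 27.0% (23.9% to 30.2%) at promoters facing both ways and 72.7% (72.3% to 73.1%) outside promoters. These intervals cover counting error only, since neighbouring sites and sites of 1 gene are not independent. Where there was a match, the median gap between its centre and the summit was 9.5 bp. Only 206 promoter sites (2.40%) matched in full, against 10.9% of sites outside promoters.

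Signal followed the closeness of the match. Full matches had a median signal of 245 over 206 sites, 1 mismatch gave 153 over 945 sites, 2 gave 67.9 over 2008 sites, 3 gave 43.8 over 2934 sites, and the 2498 sites with no match at 3 or fewer had 32.8. The same order held in each library: full matches had medians of 130 in replicate 1 and 118 in replicate 2, and sites with no match 19.7 and 15.9. With the motif, promoter sites had a median of 96.1 against 92.9 outside promoters. This nearness did not hold at like GC content, taken over the summit and 150 bp on either side. Below 40% GC the medians at promoters and outside were 66.7 and 88.3, and at 40% to 50% they were 94.3 and 81.2. At 50% to 60% they were 118 and 120, at 60% to 70% 97.5 and 133, and at 70% or more 66.1 and 121. Over all sites without the motif the medians were 38.2 and 38.3. The median over all promoter sites was 48.8, and over all sites outside promoters 68.9, and promoters had the smaller share of sites holding the motif.

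Motif share and signal both changed across the start. The share was 51.1% (48.0% to 54.1%) at 1000 to 500 bp upstream, 36.9% at 500 to 200 bp and 43.8% (40.2% to 47.5%) at 100 to 50 bp. It was 22.5% (19.3% to 26.0%) over bases 0 to 50, 24.4% at 100 to 200 bp and 39.8% at 500 to 1000 bp downstream. Median signal peaked at 84.9 at 100 to 50 bp upstream and was lowest, at 35.4, at 100 to 200 bp downstream. Upstream sites averaged 6.11 ± 1.43 (SD over 4618 sites) on the log2 scale and downstream sites 5.53 ± 1.21 (SD over 3954 sites). The difference, downstream minus upstream, was -0.57 in the optimal list, -0.54 with the signal values of replicate 1 and -0.56 with those of replicate 2. Among sites with the motif alone the medians were 130 upstream and 66.3 downstream, so the step was also present where the motif was.

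**Figure D2:**
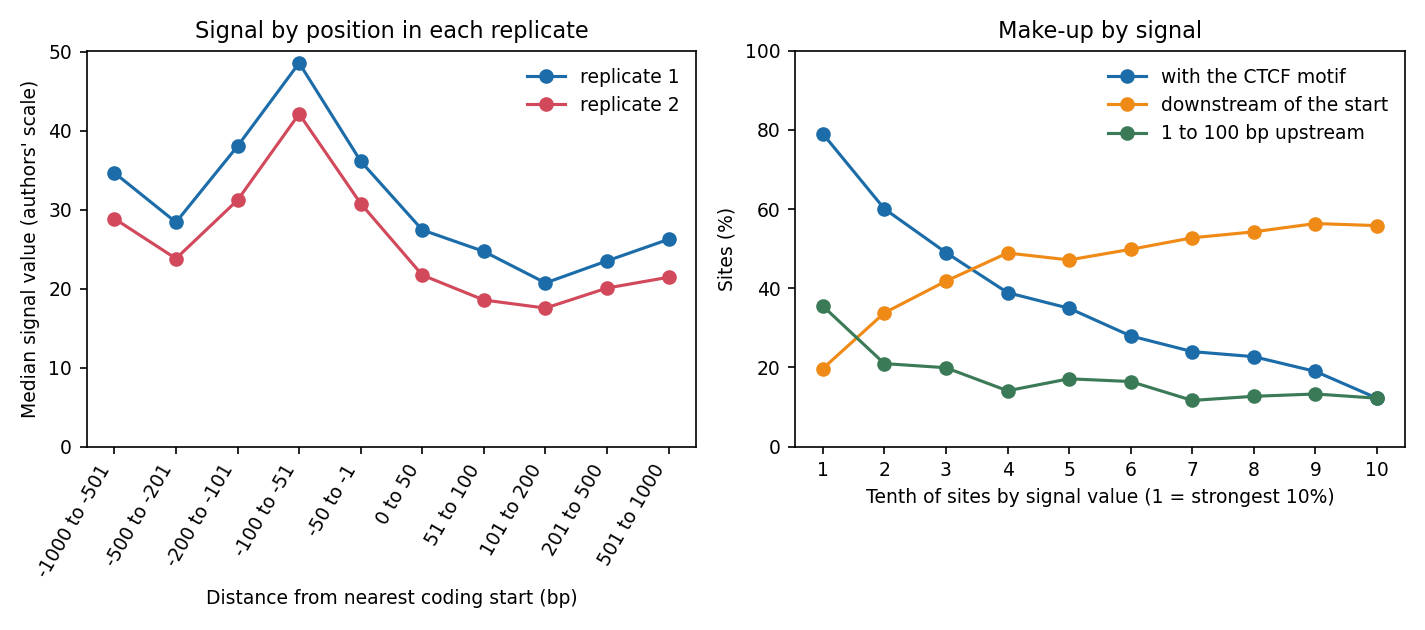
Left, median signal value (vertical axis, authors' scale) of promoter sites by distance from the nearest coding start (horizontal axis, bp) in replicate 1 (blue) and replicate 2 (red), taken at the nearest summit within 100 bp. Both replicates peak at 100 to 50 bp upstream, at 48.5 and 42.1, and are lowest at 100 to 200 bp downstream, at 20.7 and 17.5. Right, percentage of sites (vertical axis) with the motif, downstream of the start, and 1 to 100 bp upstream, in steps of 10% of the sites from strongest to weakest (horizontal axis); the motif share falls from 79.0% to 12.2% and the downstream share rises from 19.7% to 55.8%.

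Strong promoter sites lay mostly upstream and mostly held the motif. In the strongest 10%, 859 sites with signal from 240 to 622, 79.0% held the motif, 35.5% lay 1 to 100 bp upstream and 19.7% lay downstream. In the weakest 10%, 860 sites with signal from 5.33 to 19.8, these shares were 12.2%, 12.2% and 55.8%. Of the 100 strongest sites, 87 lay upstream, 25 of them at 100 to 50 bp, and 87 held the motif. GC content moved little along this order, from a median of 59.5% in the strongest 10% to 62.1% in the weakest.

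The 5 strongest sites within 100 bp of a start all lay 59 to 90 bp upstream. The highest promoter signal, 622, was at Adprhl2, which removes ADP-ribose from proteins; it lay 63 bp upstream, with 328 in replicate 1 and 299 in replicate 2. Nipsnap2, a mitochondrial protein gene, followed at 580 (302 and 280), 66 bp upstream. Med4, a subunit of the Mediator complex that links activators to RNA polymerase II, had 576 (300.6 and 275) at 87 bp upstream. Rrp1, a ribosomal RNA processing gene, had 568 (296 and 272) at 59 bp, and Lsm11, part of the particle that trims histone mRNAs, had 535 (274 and 264) at 90 bp. In each of the 5, replicate 1 stood slightly above replicate 2.

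Farther upstream the 5 strongest were Disp3, Gins4, Top1mt, Vps18 and Ppif. Disp3, of the Dispatched and Patched family, had a signal of 554 at 244 bp upstream, with 296 in replicate 1 and 263 in replicate 2. Gins4, a subunit of the DNA replication helicase, had 552 at 213 bp (294 and 260). Top1mt, the mitochondrial topoisomerase I, had 534 at 656 bp (293 and 246). Vps18, a membrane tethering subunit of the lysosomal pathway, had 488 at 135 bp (275 and 215), and its best match carried 3 mismatches. Ppif, the mitochondrial cyclophilin, had 487 at 118 bp (263 and 223).

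More than 100 bp downstream, 4 of the 5 strongest lay in introns and 1 in a coding exon. Closer to the start, sites downstream reached 468 in the first 50 bp and 469 at 50 to 100 bp. Ccdc110 had 505 at 306 bp past the start, with 264 in replicate 1 and 242 in replicate 2. Src, the tyrosine kinase, had 481 at 538 bp (267 and 216), and Cd276, an immune checkpoint ligand, 454 at 902 bp (229 and 230). In these 3 the printed match has no mismatch and lies on the strand opposite to the gene. B3gat2, a glucuronyltransferase of carbohydrate chains on neural adhesion proteins, had 449 at 958 bp (241 and 209), in coding sequence. Grm4, a metabotropic glutamate receptor, had 430 at 635 bp (236 and 194). Both of these carried the match on the gene's strand.

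The 5 strongest sites with no match at 3 mismatches reached 385 to 414. They were 9530077C05Rik (414, with 215 and 199 in the replicates), Ovca2 (409, with 217 and 191), Rsad1 (385, with 195 and 198), Tmem270 (385, with 205 and 183) and Tex22 (385, with 202 and 184). Picking them by signal favours high values, and all 2498 sites with no match had medians of 19.7 in replicate 1 and 15.9 in replicate 2. The 5 sites lay on both sides of the start, from 629 bp upstream at Tmem270 to 554 bp downstream at Tex22. The absence of a match says only that the letters searched are not within 50 bp of the summit.

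**Figure D3:**
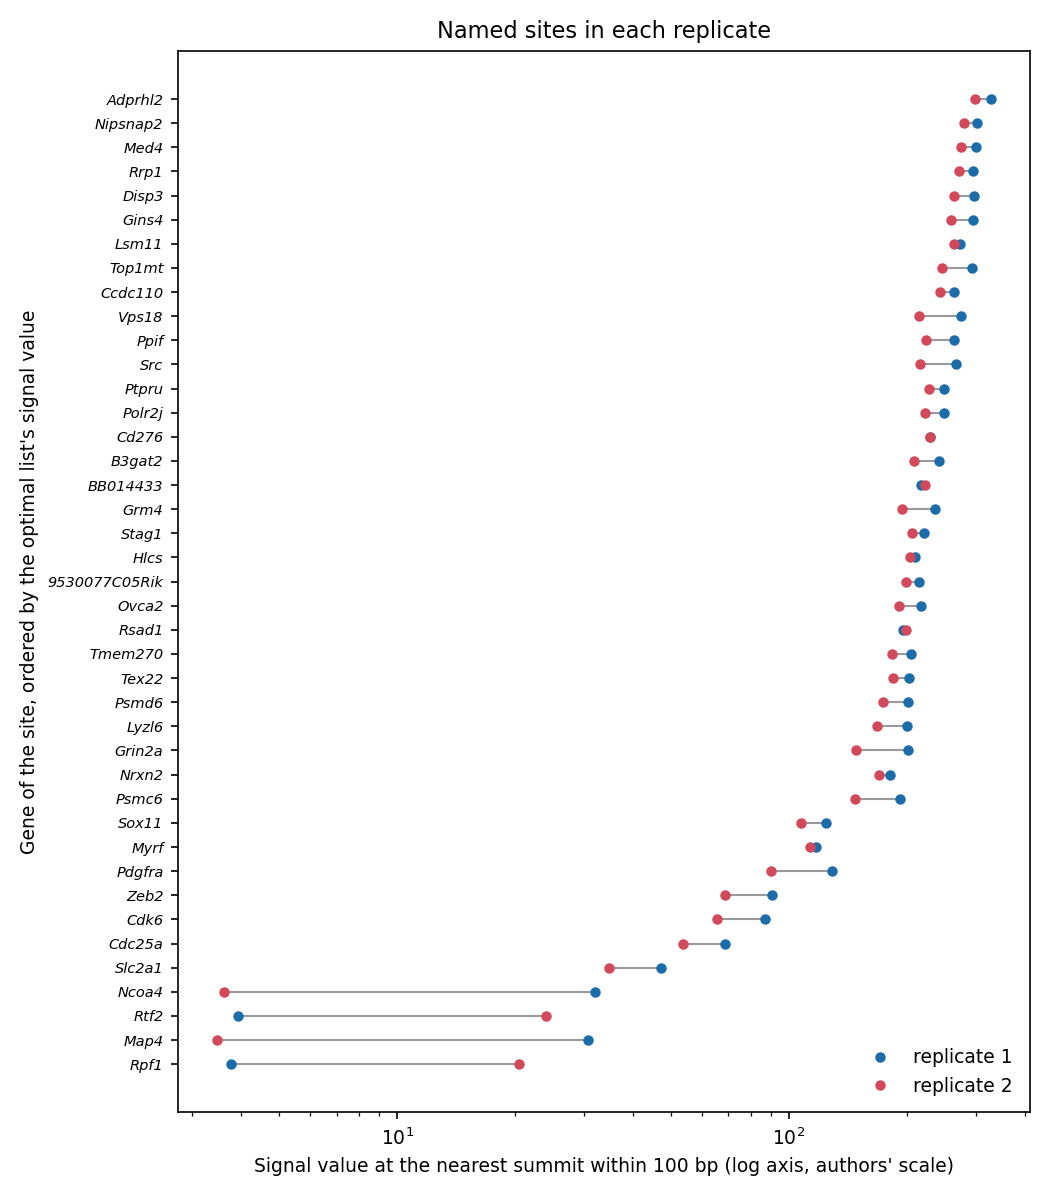
Signal value in replicate 1 (blue) and replicate 2 (red) at the nearest summit within 100 bp (horizontal axis, log scale, authors' units) for the sites named by a set rule, one per gene (vertical axis, ordered by the optimal list's signal). Most pairs of points lie close together, while Ncoa4, Map4, Rtf2 and Rpf1, chosen for the most extreme ratios, lie far apart, between 3.46 and 31.9.

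How often a promoter match had a summit nearby differed by its position and, near the start, by its direction. Every match of the motif in the available promoter sequence was located, 20411 in all, and counted as occupied when a summit of the optimal list lay within 50 bp of its centre. Of these, 3542 were occupied, 17.4% (16.8% to 17.9%), against 6.90% (6.83% to 6.97%) in the rest of the genome. Full matches were occupied in 210 of 237 cases, 88.6% (83.9% to 92.1%), against 76.8% (75.7% to 77.8%) elsewhere. With 1 mismatch the shares were 48.3% and 25.1%, with 2 they were 13.0% and 3.70%, and with 3 they were 4.97% and 0.719%. Where coding starts faced both ways, 24.0% (21.4% to 26.8%) of matches with at most 2 mismatches were occupied. A summit counts whatever letters lie under it, so the share also rises with the density of sites. The share for bases without a match was not computed, so the part of density was not tested.

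Occupancy was highest just before the start and fell sharply across it. It was 16.7% (15.5% to 18.0%) at 1000 to 500 bp upstream, 34.9% (32.1% to 37.8%) at 100 to 50 bp and 28.9% (26.4% to 31.6%) over the last 50 bp. Over bases 0 to 50 it was 15.2% (13.0% to 17.7%), and it stayed between 12.03% and 13.1% from there to 1000 bp downstream. The density of matches themselves was less uneven, at 755 per Mb at 100 to 50 bp upstream and 567 per Mb over bases 0 to 50. Full matches showed no clear step next to the start, where few lay downstream, with 50 of 53 occupied (94.3%) at 100 to 1 bp upstream and 9 of 10 (90%) at 0 to 100 bp downstream. With 1 mismatch, 217 of 317 (68.5%) and 37 of 113 (32.7%) were occupied, and with 2 mismatches 23.7% (21.8% to 25.7%) and 12.4% (10.8% to 14.1%). At a fixed GC content of 50% to 60% the upstream and downstream shares were 33.3% and 9.37%, at 60% to 70% they were 36.8% (33.7% to 40.1%) and 21.1% (17.9% to 24.6%), and at 70% or more 26.0% (22.4% to 29.9%) and 13.7% (10.99% to 17.0%). Farther out, full matches were occupied in 50 of 54 cases (92.6%, 82.4% to 97.1%) at 500 to 100 bp upstream. At 100 to 500 bp downstream it was 24 of 34 (70.6%, 53.8% to 83.2%). At 1000 to 500 bp upstream 44 of 47 (93.6%) were occupied, and at 500 to 1000 bp downstream 33 of 39 (84.6%).

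**Figure D4:**
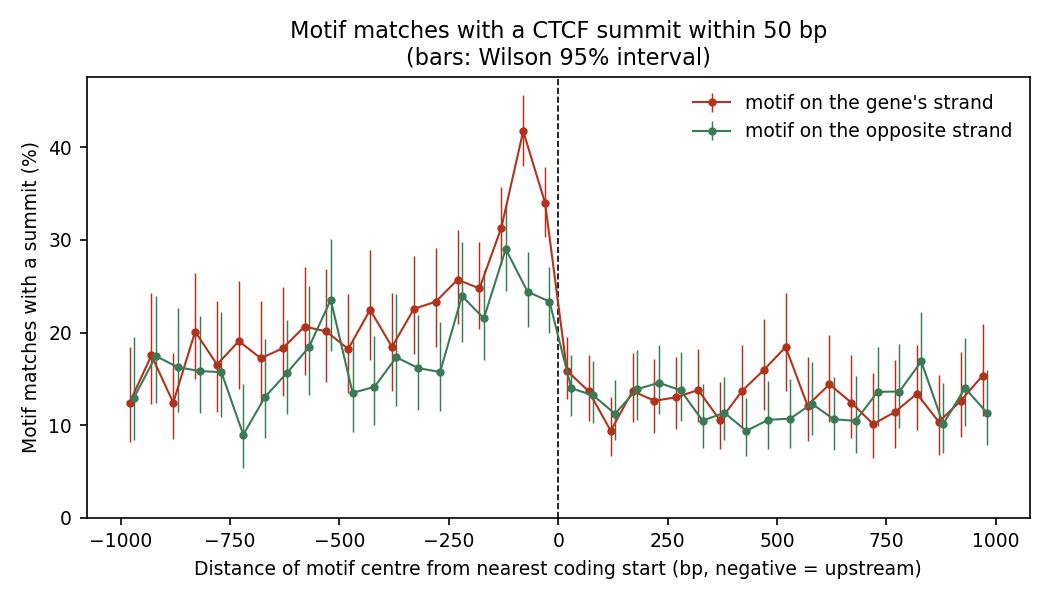
Percentage of CTCF motif matches in promoter sequence with a summit within 50 bp (vertical axis) by distance of the match from the nearest coding start (horizontal axis, bp, 50 bp steps), for matches on the gene's strand (red) and on the opposite strand (green), with Wilson 95% intervals as bars. At 100 to 50 bp upstream 41.7% of matches on the gene's strand were occupied, and past the start the strands overlap at about 9% to 18%.

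Within 500 bp upstream of the start, the motif lay more often on the gene's strand. A match is said to be on the gene's strand when the consensus reads in its usual direction on the strand the transcript copies in sequence. Of 3159 promoter sites with the motif, 1772 had it on the gene's strand, 56.1% (54.4% to 57.8%). The share was 64.2% (60.9% to 67.4%) within 100 bp of the start, 57.8% (55.1% to 60.5%) farther upstream and 47.5% (44.4% to 50.5%) farther downstream. Beyond 500 bp upstream it was 52.6% (48.3% to 56.8%), an interval that includes 50%. In the strongest 10% of sites it was 66.8% (63.1% to 70.2%). Over all 20411 matches, bound or not, 49.7% (49.0% to 50.4%) were on the gene's strand. The sequence was not balanced everywhere, however: at 100 to 1 bp upstream 1245 of the 2211 matches were on the gene's strand before any binding was counted.

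Occupancy also differed between the strands near the start. At 100 to 1 bp upstream 38.0% (35.3% to 40.7%) of matches on the gene's strand were occupied and 23.8% (21.2% to 26.6%) of those on the other strand. With 1 mismatch these were 73.0% (66.7% to 78.5%) and 58.8% (49.1% to 67.9%), whose intervals overlap slightly, and with 2 mismatches 27.7% (25.04% to 30.6%) and 19.0% (16.5% to 21.8%). Full matches were nearly all occupied on both strands, 43 of 46 and 7 of 7. At 500 to 100 bp upstream the shares over all matches were 24.5% and 20.1%. With 1 mismatch they were 65.3% (59.0% to 71.0%) and 48.3% (41.5% to 55.1%) there, and with 2 mismatches 18.2% and 15.4%. At 0 to 100 bp downstream the shares over all matches were 14.9% (12.7% to 17.5%) and 13.6% (11.4% to 16.1%). At 500 to 1000 bp downstream they were 13.1% and 12.4%, and the intervals overlapped in both downstream stretches. Matches with 1 mismatch at 0 to 100 bp downstream were an exception, with 25 of 55 (45.5%, 33.0% to 58.5%) occupied on the gene's strand and 12 of 58 (20.7%, 12.3% to 32.8%) on the other. Full matches at 500 to 1000 bp downstream differed the other way. There 12 of 18 (66.7%, 43.7% to 83.7%) were occupied on the gene's strand and 21 of 21 (100%, 84.5% to 100%) on the other. Within 100 bp, sites with the motif on the gene's strand also had the higher median signal, 184 against 92.8, while farther than 100 bp downstream the medians were 64.0 and 66.4.

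GC content set promoter sites, whether facing one way or both, apart from CTCF sites outside promoters, and it tracked how many there were. In the summit and the 150 bp on either side of it the median GC content was 61.5% (quartiles 54.2% and 67.8%), against 47.2% outside promoters. The observed to expected ratio of CpG pairs was 0.69 against 0.21, and 5.73% of promoter summits lay in repeat-masked sequence against 20.2%. Sites at promoters facing both ways were alike, with a median GC content of 63.1%, a CpG ratio of 0.78 and 4.06% in repeat-masked sequence. Promoter sequence itself had a median GC content of 48.2%. Counted per Mb of promoter sequence of the same GC, density was 14.4 sites below 40% GC, 59.9 at 40% to 50%, 189 at 50% to 60%, 569 at 60% to 70% and 482 at 70% or more.

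**Figure D5:**
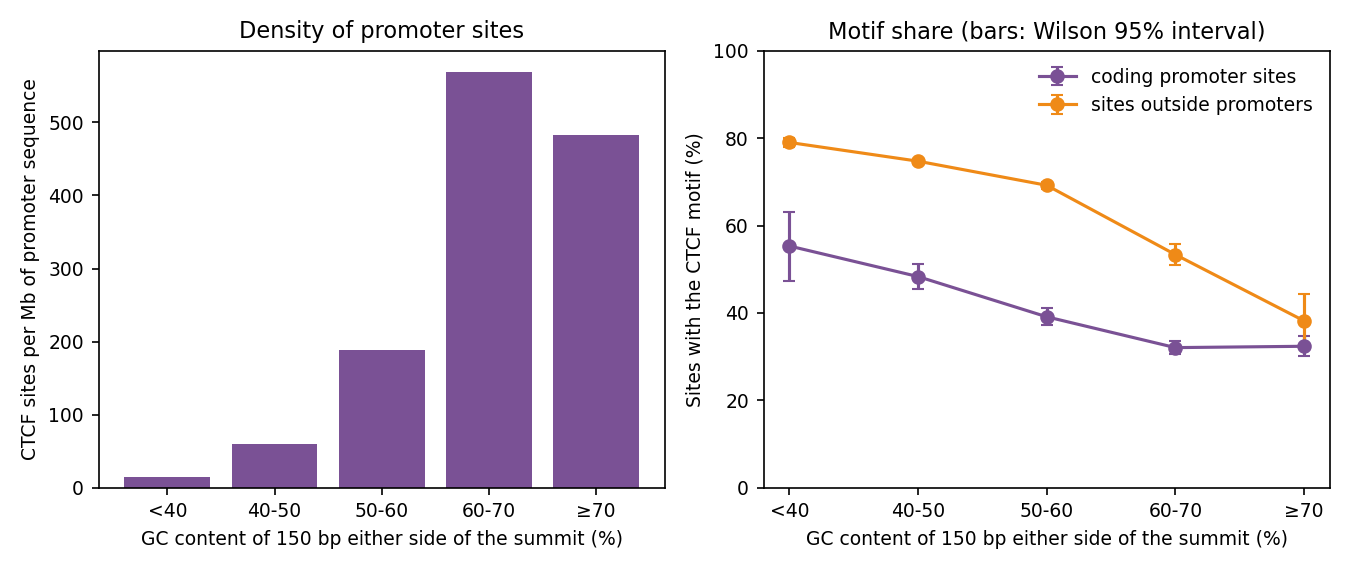
Left, promoter CTCF sites per Mb of promoter sequence (vertical axis) by GC content within 150 bp of the summit (horizontal axis, %), rising from 14.4 below 40% to 569 at 60% to 70%. Right, percentage of sites with the CTCF motif (vertical axis) by the same classes for coding promoter sites (purple) and sites outside promoters (orange), with Wilson 95% intervals; promoter sites lie below in every class, with intervals that overlap only at 70% or more.

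Motif share fell as GC content rose, at promoters and elsewhere. At promoters it was 55.3% (47.3% to 63.1%) of 150 sites below 40% GC, 48.3% of 1144 sites, 39.1% of 2517 sites, 32.1% (30.5% to 33.7%) of 3301 sites at 60% to 70%, and 32.4% (30.1% to 34.8%) of 1479 sites at 70% or more. Outside promoters it was 79.0%, 74.7%, 69.2%, 53.4% (50.99% to 55.7%) and 38.2% (32.4% to 44.4%) in the same classes. GC therefore went with part of the difference in motif share between promoters and other sites, and at 60% to 70% GC a gap of 53.4% against 32.1% was still there. Occupancy of motif matches rose with GC, from 9.05% below 40% to 23.3% (22.2% to 24.5%) at 60% to 70%, and was 18.1% (16.7% to 19.5%) at 70% or more. Median signal changed less, from 44.7 in the lowest class to 53.8 at 50% to 60% and 42.5 in the highest.

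Position and GC were linked. The downstream share of sites, 46.02% in all, was 23.3% below 40% GC, 29.6% at 40% to 50%, 39.2% at 50% to 60%, 51.9% at 60% to 70% and 59.4% at 70% or more. Most sites thus lay upstream below 60% GC and downstream above it. The available sequence was itself richer in GC downstream, with a mean of 51.4% against 47.3% upstream. Its part in these shares was not tested. The median GC content of sites was 51.2% at 1000 to 500 bp upstream, 62.1% at 100 to 50 bp upstream, 67.8% at 50 to 100 bp downstream and 58.1% at 500 to 1000 bp downstream. The 3 strongest sites in the lowest 10% of GC content were at Cd276, BB014433 and Lyzl6. BB014433 had 442 (218 in replicate 1 and 223 in replicate 2) at 12 bp past the start, and Lyzl6, a lysozyme-like gene, 367 (200 and 167) at 687 bp upstream. The 3 strongest in the highest 10% were at Ptpru, Stag1 and Hlcs. Ptpru, a receptor tyrosine phosphatase, had 477 (249 and 227) at 79 bp upstream. Stag1, a subunit of the cohesin ring that CTCF halts, had 429 (221 and 206) at 32 bp upstream with a full match, and Hlcs, the biotin ligase, 415 (209 and 204) at 21 bp upstream. All 3 GC-rich sites had the motif on the gene's strand.

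The annotated part of the gene gave a similar picture. Outside any protein-coding transcript lay 3609 sites (42.0%), with a median signal of 61.3 and the motif in 42.1%. Introns held 2515 sites (29.3%), median 44.4. In 5′ UTRs there were 1621 sites (18.9%), median 42.9 and motif share 26.1%, and in coding exons 799 (9.30%), median 37.7 and motif share 31.0%. A start of a long noncoding RNA on the other strand lay in reach of 1006 sites (11.7%). These had the motif in 30.8% (28.0% to 33.7%) of cases, against 37.6% (36.5% to 38.7%) of the other promoter sites.

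Sequences known as binding sites of general promoter factors were counted within 50 bp of each summit, on both strands, to see what sites without the CTCF motif held. Among the 1616 sites within 100 bp of a start and without the motif, 31.8% (29.6% to 34.1%) held the GC box GGGCGG, to which SP factors bind. Over the starts of all 21938 protein-coding genes the share was 27.8%, and over the 13857 genes with no promoter site 20.8%. The 816 sites within 100 bp that did hold the CTCF motif had it in 35.7% (32.4% to 39.0%). The CTCF consensus can itself end in GGGCGG, so a CTCF match can count as a GC box. The 35.7% is therefore not directly comparable with the 31.8%, and the part of this overlap was not tested. GC content in these windows had a median of 66.3% at sites without the motif, 67.3% at sites with it, 58.4% at all starts and 54.5% at starts with no site. The ETS core CCGGAA was found in 11.01% (9.58% to 12.6%) of these sites and 10.01% of all starts, and the NRF1 core GCATGCGC in 2.41% (1.77% to 3.28%) and 1.78%. The TATA box TATAAA was found in 1.11% (0.706% to 1.75%) of sites without the motif and 1.10% of those with it, against 5.26% of all starts and 6.99% of starts of genes with no site. The CCAAT box was also less frequent than at all starts, at 10.6% (9.17% to 12.2%) against 14.5%, as was the ZBTB33 core TCTCGCGA, at 0.309% (0.132% to 0.722%) against 0.784%. The windows of sites were centred on the summit and those of genes on the start. A box at a set distance from the start can therefore fall outside a site's window. How much of these differences comes from that was not tested. Outside coding promoters, sites without the motif held the GC box in 3.65% and the ETS core in 1.67%.

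Sites with and without one of these sequences had similar signal. Without the CTCF motif, median signal was 39.3 with a GC box and 37.8 without it, and 37.7 with an ETS core and 38.2 without it. The largest gap among sequences held by at least 50 such sites was at the NRF1 core, with 48.9 over 62 sites against 38.1. For the TATA box it was 32.2 over 68 sites against 38.3. These matches are letters only, and binding by the factors was not measured.

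Of 21938 protein-coding genes, 6897 (31.4%) had at least 1 such promoter site. The share rose with the number of annotated starts, from 27.1% (26.3% to 28.0%) of genes with 1 start to 30.2% with 2, 40.2% with 3 or 4 and 54.8% (51.5% to 58.1%) with 5 or more, as does the sequence within reach. Most of these genes, 5372, had 1 site, 1298 had 2, 191 had 3, 32 had 4 and 4 had 5. Promoter sites often had company: 29.9% had another summit of the optimal list within 1000 bp, against 9.24% of sites outside promoters, and the median distance to the next summit was 3109 bp against 7340 bp.

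Camta1, a calcium-dependent transcription activator of neurons, and Myc, the growth-promoting transcription factor, each had 5, as did 2 other genes. Those of Camta1 had 66.2 at one site and 15 to 21.4 at the others. The site at 66.2 had no summit within 100 bp in replicate 1 and 26.2 in replicate 2, while a neighbouring site at 15 had 55.2 in replicate 1 and none in replicate 2. A further site had none in replicate 1 and 11.9 in replicate 2, so the replicates did not place these summits alike. At Myc, 2 of the 5 stood out at 132 and 131. The first lay 25 bp past a start in the 5′ UTR, with 72.2 in replicate 1 and 58.6 in replicate 2, and had no match at 3 mismatches. The second lay 275 bp upstream of another start, with 87.6 and 44.4, and held the motif with 2 mismatches on the gene's strand.

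Lists of genes of brain cells and of general cell functions were read against the 31.4% of all protein-coding genes. Of 40 synapse and excitability genes 23 had a site, 57.5% (42.2% to 71.5%), an interval above that share. For forebrain transcription factors it was 17 of 40, 42.5% (28.5% to 57.8%), and for progenitor and glia genes 11 of 26, 42.3% (25.5% to 61.1%), intervals that include the background share. Genes of microglia, vessels and blood had sites in 5 of 30 cases, 16.7% (7.34% to 33.6%), and of 20 liver genes none had one, which with 20 genes allows up to 16.1% by the Wilson interval. General transcription machinery had 20 of 50 (40%), proteasome subunits 15 of 31 (48.4%) and cell cycle genes 14 of 35 (40%), each with an interval that includes 31.4%. In these 3 lists another 9, 3 and 1 genes, in that order, had a site only at promoters facing both ways. Over all 21938 genes this held for 1184. It also held for 1 synapse gene and for none in the other lists. Genes differ in their number of starts and in the GC content of their promoters, and the part of these in the list shares was not tested.

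The sites of list genes named here were picked as the strongest of each list. That choice favours high values, and all of them lay above the promoter median of 48.8. Among synapse genes, Grin2a, an NMDA receptor subunit, had 351 (201 in replicate 1 and 148 in replicate 2) at 692 bp past the start, and Nrxn2, a presynaptic adhesion protein, 350 (181 and 169) at 404 bp upstream with a full match. The forebrain factors Sox11, of immature neurons, and Zeb2, of interneuron and glial development, had 230 (124 and 108) and 160 (90.3 and 68.8). Myrf, the regulator of myelin genes, had 228 (117 and 113) at 96 bp upstream, and Pdgfra, the receptor that marks oligodendrocyte precursors, 218 (129 and 90.2) at 480 bp downstream.

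Slc2a1, the glucose transporter of brain vessels, had a lower value, 84.2 (47.1 and 34.6), at 126 bp upstream. Among genes that all cells use, the polymerase II subunit Polr2j had 469 (248 and 222) at 8 bp upstream. The proteasome genes Psmd6 and Psmc6 had 378 (201 and 174) and 338 (192 and 148), and the cell cycle genes Cdk6 and Cdc25a 155 (87.0 and 65.5) and 124 (68.7 and 53.7).

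The motif stretches at 4 of these genes, chosen after their values were seen, show the match on the gene's strand at genes of different kinds. At Sox11, Pdgfra and Slc2a1 it lay on the opposite strand.
Nrxn2, chr19:6418287-6418347, plus strand: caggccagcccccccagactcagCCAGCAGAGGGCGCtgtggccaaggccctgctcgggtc
Grin2a, chr16:9993868-9993928, minus strand: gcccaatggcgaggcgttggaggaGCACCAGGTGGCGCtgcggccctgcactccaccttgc
Myrf, chr19:10240776-10240836, minus strand: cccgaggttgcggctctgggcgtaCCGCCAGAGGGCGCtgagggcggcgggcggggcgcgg
Psmd6, chr14:14120994-14121054, minus strand: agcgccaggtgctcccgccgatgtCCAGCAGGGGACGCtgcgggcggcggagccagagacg

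The X chromosome carried fewer promoter sites for its sequence. It had 196 sites, or 89.1 per Mb of available promoter sequence, against 171 per Mb over the autosomes. Their median signal was lower as well, at 25.9 in replicate 1 and 21.6 in replicate 2 against 29.0 and 24.0 on autosomes. The sex of the pooled mice was not collected, so the number of X chromosomes behind these values is unknown. No site was listed at the promoters of the Y chromosome, which have 0.476 Mb of available sequence.

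Both libraries held most promoter sites. A summit lay within 100 bp in the peak lists of both for 7870 of the 8591 sites, in replicate 1 alone for 382, in replicate 2 alone for 287 and in neither for 52. These lists hold many weak peaks, 300000 each, with median signals of 4.78 and 4.18. The authors' conservative list overlapped 82.5% of promoter sites, against 87.4% of all placed sites, 88.4% of sites outside promoters and 80.4% at promoters facing both ways. The log2 ratio of replicate 1 to replicate 2 had a median of 0.26 and an SD of 0.59 over sites, against 0.19 and 0.48 outside promoters. Among promoter sites the SD was 0.47 with the motif and 0.65 without it.

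Among sites with a summit in both libraries, the most extreme ratios named here were at sites below the promoter median signal of 48.8. Sites with a summit in 1 library alone have no ratio. Rtf2, a gene of replication fork control, had 3.92 in replicate 1 and 23.9 in replicate 2, and Rpf1, a ribosome assembly gene, 3.76 and 20.5. Ncoa4, a receptor for the turnover of ferritin, had 31.9 and 3.60, and Map4, a microtubule-binding protein gene, 30.7 and 3.46. None of these 4 had a signal above 41.0 in the optimal list.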

How the data were processed

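The authors deposited narrowPeak lists on mm10, per the deposited readme: 1 list per replicate (each exactly 300000 peaks), a joint list, and lists passing a conservative and an optimal threshold of the irreproducible discovery rate. The deposited signal value per peak (column 7) has no stated scale, and the summit was taken as the start plus the deposited offset. Nothing was found on the aligner, the peak caller, the control or the number of reads, which were not given in the sources used here. The 8 optimal-list peaks on unplaced sequence were left out. Summits were placed against GENCODE M21 basic starts. GC content was taken over the summit and 150 bp on either side, the CTCF motif (14 bases, up to 2 mismatches, both strands) within 50 bp, and replicate values from the nearest summit within 100 bp. Available promoter sequence is every base that the rule would accept, which gives sites per Mb. The motif scan was tested on simulated data, where 100% of 1000 planted matches were found. Values were computed with Python 3.11.15, numpy 2.4.6, pandas 2.3.3 and scipy 1.17.1, with Wilson 95% intervals. Sites are not replicates and there is 1 group, so no p-value is given. The sites, the lists and the naming rule were chosen with earlier results of these data known. The rule names the 5 strongest sites within 100 bp, farther upstream, farther downstream and with no match at 3 mismatches, the 3 strongest in the lowest and highest 10% of GC content, the strongest site of up to 2 genes per list, the 2 most extreme replicate ratios each way and the 2 genes with most sites, leaving out chromosome 18; 1 site that the rule names is not reported here. As alternatives, sites were taken from the conservative list, from the upper part of the optimal list by signal (28231 sites) and from each replicate's strongest 56462 peaks, and the promoter distance, the starts (1 per gene), the motif and the GC window were varied. Printed sequences are from the mm10 genome, kept to 30 bases where a UTR is touched.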

Additional observations from a re-analysis of the deposited data

How the results depend on the processing

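The log2 difference stayed below 0 and the share on the gene's strand above 50% under every alternative run. The downstream share passed 50% with 1 start per gene, and the motif share did so in the upper part of the list and with 3 mismatches. For the share of sites at single-strand coding promoters, the downstream share, the motif share, the median GC content, the share on the gene's strand and the log2 difference downstream minus upstream, the values in that order were as follows. The upper part of the optimal list by signal gave 12.2%, 36.0%, 56.7%, 60.5%, 59.3% and -0.40, a promoter distance of 500 bp gave 11.6%, 43.7%, 33.9%, 63.1%, 58.7% and -0.63, and 1 start per gene gave 12.9%, 50.2%, 36.5%, 61.8%, 57.4% and -0.63. A distance of 2 kb gave 19.1%, 47.2%, 41.7%, 59.1%, 55.2% and -0.51. Each replicate's own strongest peaks, leaving the other out, gave 15.2% to 15.7%, 46.05% to 46.8%, 35.2% to 36.0%, 61.5% to 61.8%, 55.4% to 56.4% and -0.50 to -0.52. With the optimal list's sites kept, the signal values of replicate 1 alone gave -0.54. Sites with 1 start in reach, an alternative chosen after seeing the data, gave a downstream share of 48.4%, a motif share of 39.2% and a median GC content of 60.8%. The motif share was 13.4% with at most 1 mismatch, 70.9% with at most 3, and 41.5% with a window of 100 bp, and the share on the gene's strand was 59.8% and 53.8% with at most 1 and at most 3 mismatches. The share of occupied matches was 52.5% with at most 1 mismatch, 6.68% with at most 3, 16.8% with the conservative list, 10.7% with the upper part, 19.2% at 500 bp, 15.1% at 2 kb and 18.5% with 1 start per gene. The median GC content was 63.4% over about 100 bp and 57.9% over about 1 kb. The cause of these shifts was not tested. Depth is unknown, so a promoter without a listed site is not shown to lack CTCF. No paired analysis was possible because there is 1 group.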
